A study of Arabidopsis thaliana with 4 samples.

Results

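The catalases of Arabidopsis thaliana were followed on 4 ATH1 oligonucleotide arrays through 3 probe sets out of 22810, 259517_at for CAT1 (AT1G20630), 253174_at for CAT2 (AT4G35090) and 259544_at for CAT3 (AT1G20620). Plants carrying xrn4-5, an allele of the cytoplasmic 5'-to-3' exoribonuclease gene XRN4 in the Col-0 ecotype, were compared with wild-type Col-0 plants, to ask which transcripts differ in level between them. RNA came from inflorescences of mixed stage, of plants kept at 21 °C under a day of 16 h light and 8 h dark with no further treatment. Each genotype had 2 arrays, numbered 1 and 2. The sources used here state neither whether the numbers mark a shared harvest or batch nor whether different plants were used for each array. The p-values below therefore reflect the spread among these 4 arrays, which may be technical. The pairing of probe sets with CAT1, CAT2 and CAT3 is the one by which they were selected, because none of the 3 is listed in the platform annotation used here. The family was chosen by its signals on these 4 arrays, by genotype and by array number, so those signals are given as a description without a test.

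Catalases are heme enzymes of the peroxisome that break hydrogen peroxide down to water and oxygen without needing a reductant. In Arabidopsis, CAT2 is the main form of green leaves, where it removes the peroxide that glycolate oxidase makes during photorespiration. CAT3 is known from vascular tissue and ageing leaves, and CAT1 from pollen and seeds. Transcripts of CAT2 and CAT3 are known to cycle with the circadian clock, CAT2 with a peak in the morning and CAT3 with one in the evening.

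Array medians ranged from 239.6 to 248, and the small number of arrays limits the precision. Of a list of floral regulators, AGL24 and SPT were measured, 2 of 8. Their summed signal was between 413 and 419 in xrn4-5 and between 370 and 438 in Col-0. SPT alone gave 222 and 223 on arrays 2 and 1 of xrn4-5, against 272 and 167 on arrays 2 and 1 of Col-0. The other 6, among them the organ identity genes AP1, AP3, PI and AG, were not analysed here. The annotation used here pairs no probe set with XRN4, so the genotype labels were not checked on that gene.

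CAT3 had the largest genotype difference of the catalases. Its signal was 5782 and 3935 on arrays 2 and 1 of xrn4-5, against 2763 and 1222 on arrays 2 and 1 of Col-0. The lower xrn4-5 array thus lay above the higher Col-0 array. The means were 4858.5 ± 1306 in xrn4-5 and 1993 ± 1089 in Col-0 (SD, n = 2 each). At the same array number, the signal in xrn4-5 was 2.09-fold that of Col-0 for number 2 and 3.22-fold for number 1. On the scale of log2(signal + 32), where a fixed amount is added so that dim signals do not dominate and which slightly understates a fold, the differences were 1.06 and 1.66, with a mean of 1.36 ± 0.43 (SD, n = 2 pairs). That mean ranked 11 from the top among the 13647 probe sets bright enough to be tested. Their median difference was 0.01, and their central 95% lay between -0.52 and 0.52. The family was chosen with these signals known, so the rank is a description and no test.

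How far CAT3 differed depended on which Col-0 array was used. Without Col-0 array 1 its log2 difference was 0.78, and without Col-0 array 2 it was 1.94. Leaving out xrn4-5 array 2 or array 1 gave 1.08 and 1.63. With 1 array left out the genotypes are no longer matched by number, so the difference between numbers enters each of these values. In the authors' deposited table, which sets the same arrays side by side by number, the log2 ratios of CAT3 were 1.0 for number 2 and 1.8 for number 1. A ratio of at least 1 in both pairs was listed for 209 of 22746 probe sets in the authors' deposited table, 0.919%.

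CAT1, which lies next to CAT3 on the chromosome, differed less. It gave 2080 and 1485 on arrays 2 and 1 of xrn4-5, against 1640 and 1154 on arrays 2 and 1 of Col-0. The groups overlapped, since array 2 of Col-0 was above array 1 of xrn4-5. The means were 1782 ± 421 in xrn4-5 and 1397 ± 343 in Col-0 (SD, n = 2 each), a gap smaller than the SD within xrn4-5. Taken by number, the ratio of xrn4-5 to Col-0 was nearly the same in both pairs, 1.27-fold for number 2 and 1.29-fold for number 1, or log2 differences of 0.34 and 0.35. The mean of 0.35 became 0.10 without Col-0 array 1 and 0.59 without Col-0 array 2, where the genotypes are no longer matched by number. The authors' deposited table lists 0.3 for CAT1 in each pair.

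CAT2 showed no genotype difference beyond the spread between arrays. Its signal was 4160 and 5787 on arrays 2 and 1 of xrn4-5, against 4095 and 6242 on arrays 2 and 1 of Col-0. Both Col-0 arrays enclosed both xrn4-5 arrays. The means were 4973 ± 1151 in xrn4-5 and 5168 ± 1518 in Col-0 (SD, n = 2 each), and the mean log2 difference was -0.04 ± 0.09 (SD, n = 2 pairs). Leaving out 1 array turned its direction, with -0.35 without Col-0 array 2 and 0.26 without Col-0 array 1. With 1 array left out the genotypes are no longer matched by number, so the difference between numbers enters both values. In the authors' deposited table the CAT2 ratios were 0.1 for number 2 and -0.2 for number 1.

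**Figure D1:**
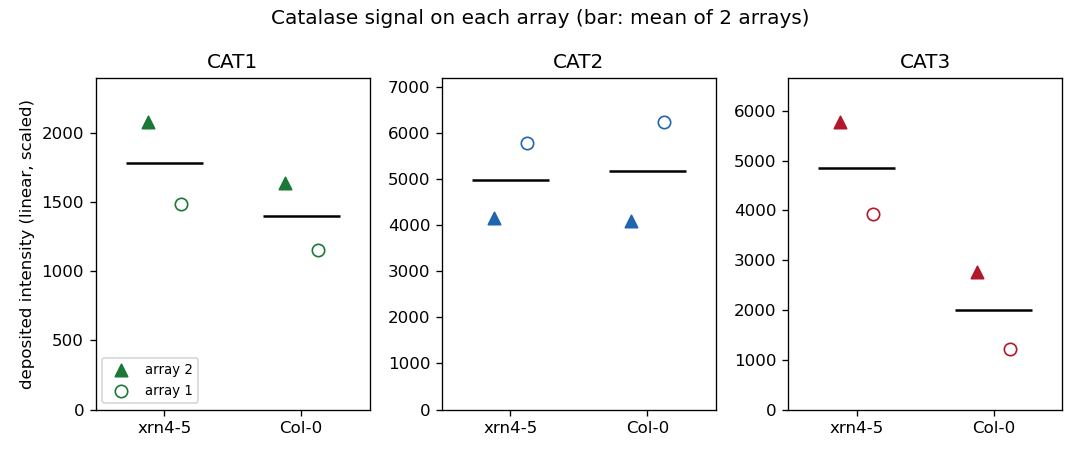
Signal of CAT1, CAT2 and CAT3 on each array (y axis, deposited linear intensity, starting at 0) by genotype (x axis), with filled triangles for array 2, open circles for array 1 and a bar at the mean of 2 arrays. Both CAT3 signals of xrn4-5, 5782 and 3935, stand above both of Col-0, while for CAT2 the array number separates the points and the genotype does not.

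Across the family, 1 of 3 catalases had both xrn4-5 arrays above both Col-0 arrays and 0 of 3 had both below. The same held for 22.8% and 18.6% of the tested probe sets. With limma, 0.00733% of tested probe sets (1 of 13647) passed as higher in xrn4-5 at an adjusted p under 0.05 and 0 passed as lower, beside 1272 at an unadjusted p under 0.05. That fit leaves the array number out, and with the number as a block 71 passed as higher and 60 as lower.

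By array number, the catalases moved in different directions. CAT2 was lower on the arrays numbered 2, with 4160 in xrn4-5 and 4095 in Col-0, against 5787 in xrn4-5 and 6242 in Col-0 on the arrays numbered 1. The means were 4127 ± 45.8 for number 2 and 6014 ± 321 for number 1 (SD over genotypes, n = 2 each). Its log2 difference, number 2 minus number 1, was -0.47 in xrn4-5 and -0.60 in Col-0. The mean of -0.54 ranked 276 from the bottom of 13647, again a description, since the family was chosen with these signals known.

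CAT1 and CAT3 were higher on the arrays numbered 2 in both genotypes. CAT1 gave 2080 in xrn4-5 and 1640 in Col-0 for number 2, against 1485 and 1154 for number 1 in the same genotypes. Its log2 differences of 0.48 in xrn4-5 and 0.49 in Col-0 were almost equal, and both number 2 arrays stood above both number 1 arrays. CAT3 gave 5782 in xrn4-5 and 2763 in Col-0 for number 2, against 3935 and 1222 for number 1. Its numbers overlapped, because array 1 of xrn4-5 exceeded array 2 of Col-0, and its log2 differences were 0.55 in xrn4-5 and 1.16 in Col-0.

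Of the 3 catalases, 1 had both number 2 arrays above both number 1 arrays (CAT1) and 1 had both below (CAT2), as did 18.3% and 18.7% of the tested probe sets. Within each genotype taken alone, 2 of 3 were higher on array 2 and 1 of 3 was lower, beside 28.8% and 30.2% of the tested probe sets. With genotype as a term, limma called 173 probe sets higher on number 2 (1.27%) and 149 lower (1.09%) at an adjusted p under 0.05. These counts were 1 and 0 with dim probe sets kept, 78 and 44 without the variance trend, and 4 and 1 without the genotype term. The median log2 difference over all tested probe sets was 0.00, and the central 95% lay between -0.50 and 0.55.

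**Figure D2:**
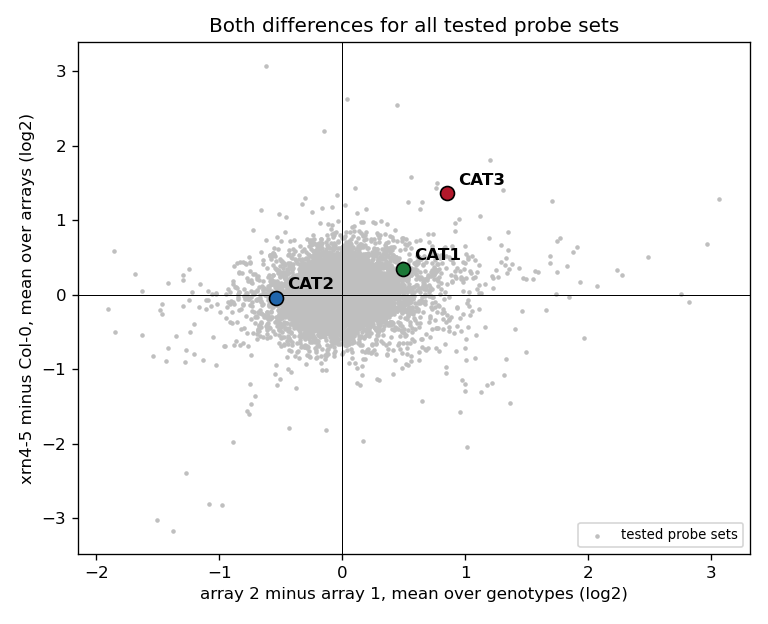
Log2 difference between genotypes (y axis, xrn4-5 minus Col-0) against log2 difference between array numbers (x axis, number 2 minus number 1) for the 13647 tested probe sets (grey) and the catalases (coloured). CAT3 lies at 1.36 and 0.85, CAT1 at 0.35 and 0.49, and CAT2 at -0.04 and -0.54 (genotype first).

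The genotype difference of CAT3 was not the same in both pairs, being smaller by 0.60 on the log2 scale for number 2 than for number 1. A gap of at least that size between the pairs was seen in 7.25% of tested probe sets, and the median gap was 0.19. For CAT1 the pairs differed by 0.02, and for CAT2 by 0.13. CAT3 and CAT1 shared a direction in all 4 comparisons at hand, higher in xrn4-5 for each number and higher on array 2 for each genotype, and 12.2% of tested probe sets did the same. Centred on its own mean over the 4 arrays, CAT3 differed from CAT1 by a root mean square of 0.56 and from CAT2 by 1.00 on the log2 scale, and CAT1 differed from CAT2 by 0.55.

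Other genes whose 4 centred values lay closest to each catalase were taken from the 7297 tested probe sets with exactly 1 named gene. With only 4 arrays such closeness describes these arrays alone. It also depends on the measure, since by Pearson correlation none of the 5 closest genes of any catalase stayed the same. The distance is a root mean square on the log2 scale and grows with how widely a gene itself varies, so distances are not comparable between the catalases. For CAT3, the most variable of them, the closest gene, AT2G36885 at 0.156, gave 1864 and 1439 on arrays 2 and 1 of xrn4-5, against 994 and 522 on arrays 2 and 1 of Col-0. At 0.261 came SAPX, a stromal ascorbate peroxidase of chloroplasts, which also removes hydrogen peroxide. SAPX gave 1684 and 1077 on arrays 2 and 1 of xrn4-5, against 647 and 468 on arrays 2 and 1 of Col-0. AT1G78995, AT2G47890 and AT1G48330 were at distances from 0.257 to 0.315.

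CAT1 and CAT2 varied less over the arrays, so the distances of their closest genes are not comparable with those of CAT3. Within a distance of 0.1 lay 48 of the 7297 for CAT1 (0.658%) and 70 for CAT2 (0.959%). Closest to CAT1 was XERICO, a RING-type protein known from abscisic acid responses, at a distance of 0.022. It gave 1214 and 879 on arrays 2 and 1 of xrn4-5, against 930 and 667 on arrays 2 and 1 of Col-0. DIM1B, a ribosomal RNA dimethyltransferase, followed at 0.035, then AT3G20015, AT5G38510 and AT3G58060. Closest to CAT2 was AT4G24130 at 0.021, with 1503 and 2142 on arrays 2 and 1 of xrn4-5, against 1509 and 2233 on arrays 2 and 1 of Col-0. AT4G30450, AT4G14920, AT3G11690 and EXGT-A3, a xyloglucan endotransglucosylase of the cell wall, were the others, at 0.030 to 0.045.

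**Figure D3:**
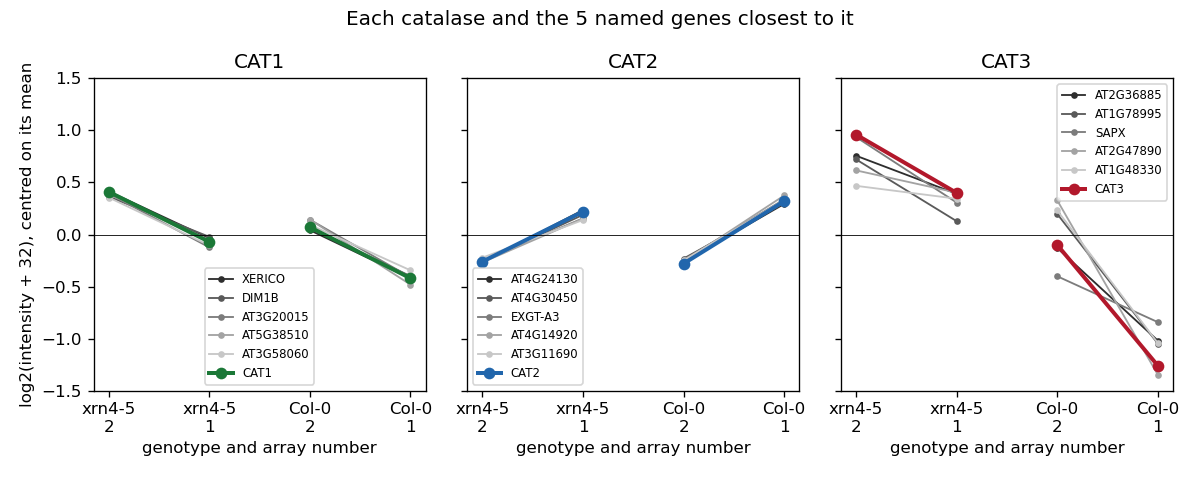
Log2(signal + 32) centred on each gene's mean (y axis) on the 4 arrays (x axis, array 2 left of array 1 within a genotype) for each catalase (thick, coloured) and the 5 closest named genes (grey). The root mean square distance of the grey lines is at most 0.052 from CAT1 and 0.045 from CAT2, and 0.156 to 0.315 from CAT3. These distances are not comparable between the catalases.

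CAT3 and CAT1 are immediate neighbours among the protein-coding genes of the TAIR10.1 assembly, while CAT2 lies on another chromosome. RefSeq lists 6 transcripts for CAT3, 1 for CAT1 and 3 for CAT2, which were not told apart here. Of the 5 protein-coding genes on either side of each catalase, 4 had a named probe set bright enough to be tested, and none of the 4 passed either test. Nothing is read from that count, since 0.00733% of all tested probe sets passed between genotypes, and 1.27% and 1.09% between numbers. On the CAT3 and CAT1 stretch, AT1G20580 averaged 885 ± 33.2 in xrn4-5 and 984 ± 18.4 in Col-0 (SD, n = 2 each; limma adjusted p = 0.738). AT1G20670, on the other side, averaged 362.5 ± 9.33 in xrn4-5 and 320 ± 36.0 in Col-0 (SD, n = 2 each; limma adjusted p = 0.752). Their log2 differences were -0.15 and 0.17. Beside CAT2, bZIP19 and AT4G35110 were tested, with log2 differences between numbers of -0.05 and -0.21 (limma adjusted p = 0.912 and 0.539). The catalases resemble each other in sequence, and whether a probe set also caught RNA of another catalase was not tested, since no probe sequences were used here.

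Around the catalases, 9 of the 10 pathway lists had a named probe set, for 27 of their 155 genes, and 23 genes were bright enough to be tested. The list without one held the catalase regulators NCA1, LSD1 and LOL1, which were not analysed here. None of the 23 passed limma at an adjusted p under 0.05 in either comparison, a count from which nothing is read. Over all tested probe sets, 0.00733% passed as higher and 0 as lower between genotypes, and 1.27% and 1.09% between numbers. With the array number as a block in the genotype fit, 1 of the 23 passed, SAPX (limma adjusted p = 0.00567). The fit with the block called 71 of all 13647 tested probe sets higher and 60 lower. Without that block, 4 of the 23 had an unadjusted p under 0.05 between genotypes, beside 9.32% of all tested probe sets. Between numbers there were 6, beside 13.8%. The median log2 difference over the 23 was -0.08 between genotypes and 0.07 between numbers.

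Other scavengers of hydrogen peroxide had 5 of 25 genes tested, with 3 estimates higher and 2 lower in xrn4-5. SAPX averaged 1380 ± 429 in xrn4-5 and 558 ± 126 in Col-0 (SD, n = 2 each), a log2 difference of 1.24 (limma adjusted p = 0.391). That fit leaves the array number out, and with the number as a block SAPX passed (limma adjusted p = 0.00567). The fit with the block called 71 of all 13647 tested probe sets higher and 60 lower. TAPX, the ascorbate peroxidase of the thylakoid membrane, averaged 803.5 ± 65.3 in xrn4-5 and 924 ± 116 in Col-0. For the chloroplast peroxiredoxins 2CPA and PRXIIE the log2 differences were -0.13 and 0.15. Between numbers none of the 5 passed, beside 1.27% called higher and 1.09% called lower over all tested probe sets.

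Photorespiration, the source of the peroxide that CAT2 removes in leaves, had 7 of 26 genes tested. HPR1, the hydroxypyruvate reductase of the peroxisome, was lower on the arrays numbered 2, as CAT2 was. It gave 4981 in xrn4-5 and 5405 in Col-0 for number 2, against 5944.5 and 6856 for number 1. Both number 2 arrays lay below both number 1 arrays for 3 of the 7, HPR1 among them, beside 18.7% of all tested probe sets. The log2 difference of HPR1 between numbers was -0.30 (limma adjusted p = 0.185). Of the 7 genes tested, 3 had a lower and 4 a higher estimate for number 2, among the higher ones PLGG1 with 0.19. GLDH2 and GLDH3, H subunits of glycine decarboxylase, had log2 differences between genotypes of 0.29 and -0.20, and PLGG1, the glycolate and glycerate carrier of the chloroplast, had -0.03. Medians over the 7 were -0.03 between genotypes and 0.00 between numbers.

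In the ascorbate and glutathione list, 5 of 17 genes were tested. GR1, a glutathione reductase of cytosol and peroxisome, gave 2158 in xrn4-5 and 2376 in Col-0 for number 2, against 2892 and 3278 for number 1, a log2 difference of -0.44 (limma adjusted p = 0.0748). GR2, the glutathione reductase of chloroplast and mitochondrion, had -0.28 between numbers (limma adjusted p = 0.318). VTC4 and GLDH, of ascorbate synthesis, had -0.11 and 0.08.

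Peroxisome biogenesis had 2 of 25 genes tested. PEX4, a ubiquitin-conjugating enzyme of protein import, and FIS1A, of organelle fission, had log2 differences between genotypes of -0.10 and 0.11. AIM1, of fatty acid oxidation, was the only one of 18 tested in its list and had -0.08. UPOX, a gene known to respond to oxidative stress, averaged 143 ± 9.62 in xrn4-5 and 207 ± 11.2 in Col-0 (SD, n = 2 each; limma adjusted p = 0.523).

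CCS, the copper chaperone of superoxide dismutase, gave 483 and 326 on arrays 2 and 1 of xrn4-5, against 713 and 439 on arrays 2 and 1 of Col-0. It thus ran opposite to CAT3 between genotypes and with CAT3 and CAT1 between numbers, and it passed neither test (limma adjusted p = 0.668 and 0.0674). The evening clock gene GI gave 537 and 431 on arrays 2 and 1 of xrn4-5, against 360 and 214 on arrays 2 and 1 of Col-0. Like CAT3, it was higher in xrn4-5 for each number and on array 2 for each genotype, as were 12.2% of tested probe sets. GI passed neither test (limma adjusted p = 0.495 and 0.185). GI was the only one of 15 clock genes with a named probe set, and whether time of day had a part in the catalase differences was not tested.

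**Figure D4:**
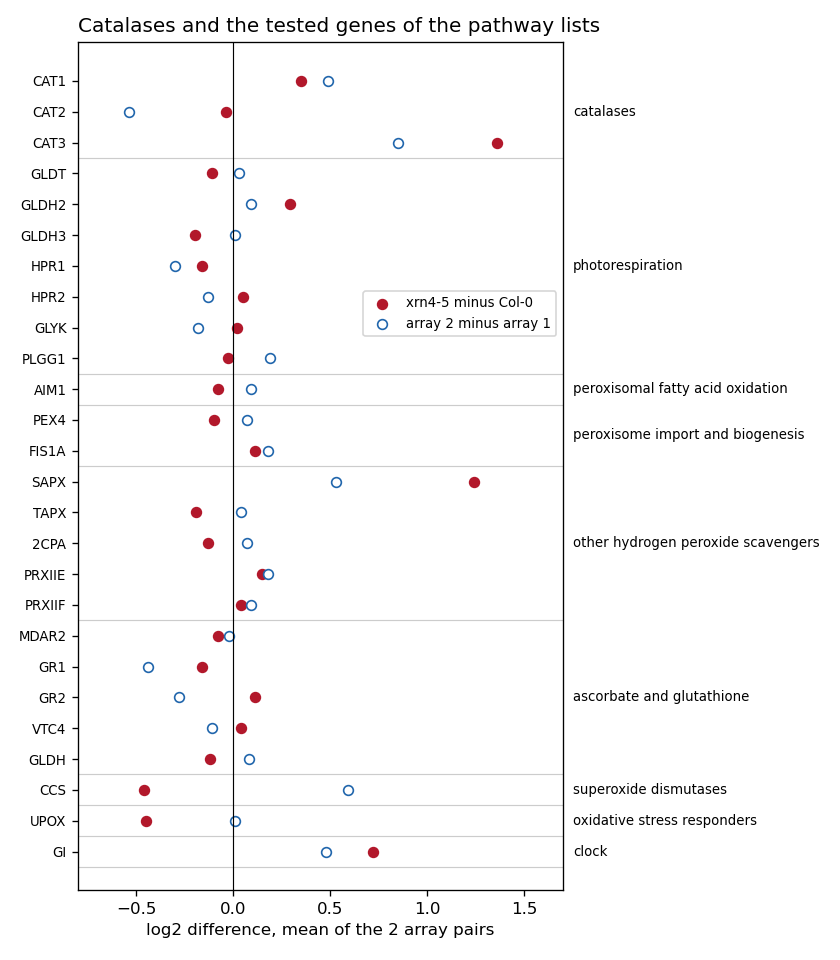
Log2 differences (x axis) between genotypes (filled red) and between array numbers (open blue) for the 3 catalases and the 23 tested genes of the pathway lists (y axis), each the mean of 2 array pairs. CAT3 at 1.36 and SAPX at 1.24 are the rightmost red points, and CAT2 at -0.54 and GR1 at -0.44 are the leftmost blue points.

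Markers of tissues that an inflorescence can hold were set beside the catalases, and none of their 13 tested genes passed either test, a count from which nothing is read, since 0.00733% of all tested probe sets passed between genotypes and 1.27% and 1.09% between numbers. Of the green tissue list, RCA, PRK and PSBY were measured, 3 of 7, none listed at 0. Their summed signal was 26983 in xrn4-5 and 27748 in Col-0 for number 2, against 30604 and 30728 for number 1, so it was lower on the arrays where CAT2 was lower. RCA and PRK had both number 2 arrays below both number 1 arrays, as did 18.7% of all tested probe sets, and PSBY overlapped. Late pollen had 3 of 6 markers measured, with a summed signal of 1109 to 1136 in xrn4-5 and 1198 to 1538 in Col-0. The tapetum, the cell layer that feeds pollen, had 4 of 5, with 7637 to 8390 in xrn4-5 and 9176 to 9260 in Col-0. Both sums were lower in xrn4-5, where CAT3 and CAT1 gave higher means. ATA27 made up most of the tapetum sum and TUA1 most of the late pollen sum. GRP of the tapetum and AGL65 of late pollen overlapped between genotypes. The other measured members had both xrn4-5 arrays below both Col-0 arrays, as did 18.6% of all tested probe sets. BAN, the 1 of 4 seed markers measured, gave 319 and 409 on arrays 2 and 1 of xrn4-5, against 182 and 670 on arrays 2 and 1 of Col-0. Markers of senescing and vascular tissue, where CAT3 is known, had no named probe set and were not analysed here. As a sign of RNA integrity, the 5' minus 3' signal of the actin control was -0.50 ± 0.03 in xrn4-5 and -0.67 ± 0.01 in Col-0 (log2, SD, n = 2 each), while for the GAPDH control it was 0.10 ± 0.02 in xrn4-5 and 0.07 ± 0.03 in Col-0. The ubiquitin control gave -0.19 ± 0.06 in xrn4-5 and -0.20 ± 0.03 in Col-0. The part of tissue makeup and of RNA integrity in the catalase differences was not tested, and in whole inflorescences fewer cells of a type and less RNA per cell cannot be told apart.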

How the data were processed

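The deposited value table holds 1 linear intensity per probe set and array. The submitters' processing notes name GCOS, with no version. The 2% trimmed mean was 500.04 on every array, so the authors had scaled the arrays together. The authors also deposited log2 ratios of xrn4-5 over Col-0 per same-numbered pair, per the file headers, and change p-values, which were not used here.

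Intensities were analysed as log2(value + 32). The 64 control probe sets and the 40% with the lowest mean log2 value were left out, which left 13647, all 3 catalases among them. Both comparisons were fitted on all 4 arrays in R 4.3.3 by limma 3.58.1 (lmFit, then eBayes with a variance trend), two-sided, with Benjamini-Hochberg adjustment over all 13647 at 0.05. The genotype fit had 2 residual degrees of freedom and the number fit, with genotype as a term, had 1. Scripts were tested on simulated data.

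Members, gene lists and tests were chosen with earlier results of these data known. Genes were named from the platform annotation, in which 13513 probe sets have 1 gene, 503 have several and 8730 are not listed; 13436 of the first matched TAIR10.1 names. List genes carry their common names, were matched by locus and, where there were several probe sets, read from the brightest. Genes reported with values are the catalases, the 5 closest genes to each, and the tested flanking genes. Per pathway list they are the genes that passed or else up to 4 with the largest differences. Some markers and the listed genes too dim to be tested were also named. The flanking genes were added after the data had been seen. Replicate arrays were distinct: 47 of 22810 values were identical in xrn4-5 and 46 in Col-0. Alternatives changed the offset, filter, normalization, variance prior, block and arrays used.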

Additional observations from a re-analysis of the deposited data

Results flagged for a closer look

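For CAT2 the estimate had opposite signs in the 2 array pairs, 0.02 for number 2 and -0.11 for number 1 (xrn4-5 minus Col-0, log2). Both are small beside the spread between arrays, and the difference between the pairs was not tested.

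Among the listed genes, the same turn of sign between pairs was seen, untested, for PLGG1 (-0.30 for number 2 and 0.23 for number 1), PEX4 (0.04 and -0.24), TAPX (-0.39 and 0.01) and GLDH (0.06 and -0.31). By number, the difference of array 2 minus array 1 had opposite signs in the genotypes, also untested, for GLDH3 (-0.07 in xrn4-5 and 0.08 in Col-0), PLGG1 (-0.07 and 0.46), PEX4 (0.21 and -0.07), TAPX (-0.16 and 0.25), GLDH (0.26 and -0.10) and UPOX (0.11 and -0.10). With 1 array per genotype and number, such a turn of sign can come from a single array.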

How the results depend on the processing

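Other offsets, normalizations and the authors' deposited ratios put the log2 difference between genotypes at 0.30 to 0.37 for CAT1, -0.07 to -0.02 for CAT2 and 1.33 to 1.40 for CAT3. Leaving out 1 array gave 0.10 to 0.59 for CAT1, -0.35 to 0.26 for CAT2 and 0.78 to 1.94 for CAT3. Such fits no longer match the genotypes by number, so the difference between numbers enters these values. The cause of the other moves, which follow, was not tested. For CAT2 the difference between numbers was -0.47 within xrn4-5 and -0.60 within Col-0. The count of probe sets higher in xrn4-5 was 0 with no filter and 0 without trend, and 0 to 3 when 1 array was left out (0 without either xrn4-5 array, 3 without Col-0 array 2, 2 without Col-0 array 1), where the count of lower ones was 0 to 8, the 8 without Col-0 array 1, with a single remaining array taken to have the same spread as the pair. With the replicate block it was 71 higher and 60 lower, and 1 of the 23 list genes passed, SAPX (limma adjusted p = 0.00567). For the pairing, the array numbers are not tied to any batch in the labels, and the correlation of deviations within a number was 0.42. Between numbers, 1 probe set was higher and 0 lower with no filter, 78 and 44 without trend, and 4 and 1 with genotype left out of the fit. By Pearson correlation none of the 5 closest genes of any catalase stayed the same, and with 64 added before the log 3 of the 5 did for CAT2. Promoter motif shares were not run, because no promoter sequences were used here.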

Other observations

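Among listed genes too dim to be tested were 3 NADPH oxidases, enzymes that feed hydrogen peroxide production at the plasma membrane. RBOHE gave 147 and 111 on arrays 2 and 1 of xrn4-5, against 113 and 115 on arrays 2 and 1 of Col-0. RBOHI lay between 30.6 and 35.4 in xrn4-5 and between 30.0 and 44.9 in Col-0, and RBOHG was under 8 on every array. ICL, the isocitrate lyase of the glyoxylate cycle in seedlings, gave 14.8 and 11.8 on arrays 2 and 1 of xrn4-5, against 7.1 and 7.3 on arrays 2 and 1 of Col-0.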
